A study of Mus musculus with 22 samples.

Results

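Isl1 and 7 genes of its LIM cofactor complex were followed in sorted endocrine cells of the mouse pancreas. The members were found by their gene symbols, which were matched to Ensembl identifiers in the count tables of both ages. All 8 were found, out of 30332 genes listed in either table. They are Isl1 and Isl2, the adaptors Ldb1 and Ldb2, the stabilising proteins Ssbp2 and Ssbp3, and the LIM-only genes Lmo1 and Lmo2. Their values in the sequenced libraries played no part in this rule.

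ISL1 is a LIM-homeodomain transcription factor of all islet endocrine lineages. Its homeodomain binds DNA at TAAT cores, and its LIM domains bind the adaptor LDB1, which self-associates and so can join transcription factors on separate stretches of chromatin. Proteins of the SSBP family protect LDB1 from degradation. LIM-only proteins carry LIM domains without a homeodomain, and they occupy the same binding surface of LDB1 that a LIM-homeodomain protein would use.

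RNA from 100 tdTomato+ cells was sequenced in each of 22 libraries. The Isl1CKO libraries came from Isl1 f/f; Neurod1 Cre; TomatoAi14 mice at P9 (6 libraries) and E14.5 (5 libraries), and the control libraries from Isl1 f/+; Neurod1 Cre; TomatoAi14 mice at P9 (5 libraries) and E14.5 (6 libraries), of both sexes and on a C57BL/6 background. Cre and the tdTomato reporter were thus present in every group, the controls carried 1 floxed Isl1 allele although their labels call them WT, and recombination was limited to cells in which Neurod1 drives Cre. The sources call each library a biological replicate but do not say which animals or litters it came from, so p-values measure only the spread between libraries.

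Each library held 8477482 to 13580985 counts, and no pair of libraries looked like one library deposited in duplicate. Endocrine markers were abundant in every group, with Chga, a secretory granule protein, at 12700 to 18100 CPM (counts scaled to a common library total) in P9 Isl1CKO and 7770 to 9340 CPM in P9 control libraries, and at 2410 to 3210 CPM in E14.5 Isl1CKO and 1400 to 2180 CPM in E14.5 control libraries. Of the defining beta, alpha and delta cell markers in P9 Isl1CKO libraries, Ins2 (insulin) stayed at 54300 CPM or more, Gcg (glucagon) lay between 54.6 and 3380 CPM, and Sst (somatostatin) lay between 0 and 0.259 CPM. In P9 control libraries these were at least 382000, 18700 and 20 CPM. Hormone transcripts took 13.98 to 30.18% of all counts in P9 Isl1CKO and 51.13 to 56.45% in P9 control libraries. For that reason the scaling mattered at P9: over all genes, log2 fold changes had a median of 0.023 with TMM factors and 0.68 with total counts.

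The targeted gene itself comes first. Isl1 (ENSMUSG00000042258) lies on the minus strand of chromosome 13 of GRCm38 from 116298281 to 116309689, and no annotated gene overlaps it. Its counts sum all exons, with those that a recombined floxed allele may keep among them, and they do not measure the protein or check the deletion. The names Isl1CKO and control are therefore the labels of the libraries throughout.

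At P9, Isl1 transcripts were more abundant in Isl1CKO than in control endocrine cells. The scaled count, which is the count over the library's TMM-adjusted size, brought to the mean size of that age, was 3730 at its lowest, 8309 at the median and 10410 at its highest in the 6 Isl1CKO libraries. The control libraries had 4414, 2998, 4000, 3796 and 3845. Isl1CKO libraries 1, 2, 3, 4 and 6 lay above every control library, whereas Isl1CKO library 5 lay within the control range. The means were 8037 ± 2455 in Isl1CKO (SD, n = 6) and 3811 ± 515 in control (SD, n = 5). This was a log2 fold change of 1.08 with a standard error (SE) of 0.21 and an edgeR adjusted p of 0.0081, a 2.11-fold higher level in Isl1CKO. Without Isl1CKO library 5 it was 1.23 (adjusted p = 1.2e-04), and it stayed between 0.99 and 1.23 with an adjusted p of 0.030 or less whichever library was left out. An edgeR fit that blocked libraries by their number gave 0.94 (adjusted p = 0.066), although the sources do not say what shared numbers mean. Marker lists of other cell types moved with the P9 groups: 7 neural genes summed to 328 to 501 CPM in Isl1CKO and 251 to 357 CPM in control libraries (1 higher and 1 lower of 4 tested), and 7 exocrine genes to 18.2 to 115 CPM in Isl1CKO and 24.1 to 688 CPM in control libraries (0 of 5 called). The summed level of 7 macrophage markers was 7.08 to 37.0 CPM in Isl1CKO and 23.4 to 61.6 CPM in control libraries (0 of 3 tested called). C1qb (macrophage) and Pnlip and Ptf1a (exocrine) were not among the genes listed at P9. Those genes have at least 10 counts in all, so the levels of these markers are unknown. For 7 mesenchymal markers the sum was 3.27 to 23.8 CPM in Isl1CKO and 7.45 to 65.4 CPM in control libraries (0 of 3 tested called). The Isl1 call held without control libraries 1 and 3, which had most exocrine transcripts and were chosen after seeing the data. Exocrine genes still summed to 24.1 to 67.2 CPM in the other control libraries. The part of any of these marker lists in the Isl1 result was not tested.

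At E14.5, Isl1 transcripts were less abundant in Isl1CKO cells but still plentiful. The scaled counts were 10921, 10840, 11165, 11551 and 8884 in the 5 Isl1CKO libraries, and the 6 control libraries ranged from 12660 to 16810 with a median of 14870. The groups did not overlap, as was the case for 2.49% of all genes tested at E14.5. The log2 fold change was -0.48 (SE 0.079, adjusted p = 0.0063), which is 1.40-fold lower in Isl1CKO. Markers of macrophages moved with part of this group: the summed level of 7 such genes was 88.0, 119 and 54.5 CPM in Isl1CKO libraries 3, 4 and 5, and 40.4 and 36.7 CPM in Isl1CKO libraries 1 and 2, against 33.8 to 52.1 CPM in controls. Without libraries 3, 4 and 5 the fold change was -0.45, with an adjusted p of 0.12 in a fit of only 2 Isl1CKO libraries. Blocking all libraries by their number in edgeR gave -0.49 (adjusted p = 0.052). None of the 3 macrophage markers tested was called. The summed level of 7 mesenchymal markers was 13.5 to 26.2 CPM in Isl1CKO and 18.9 to 65.3 CPM in control libraries, with 0 of 3 tested called. Lum was not among the genes listed at E14.5, so its level is unknown. The part of the mesenchymal genes in the Isl1 result was not tested.

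**Figure D1:**
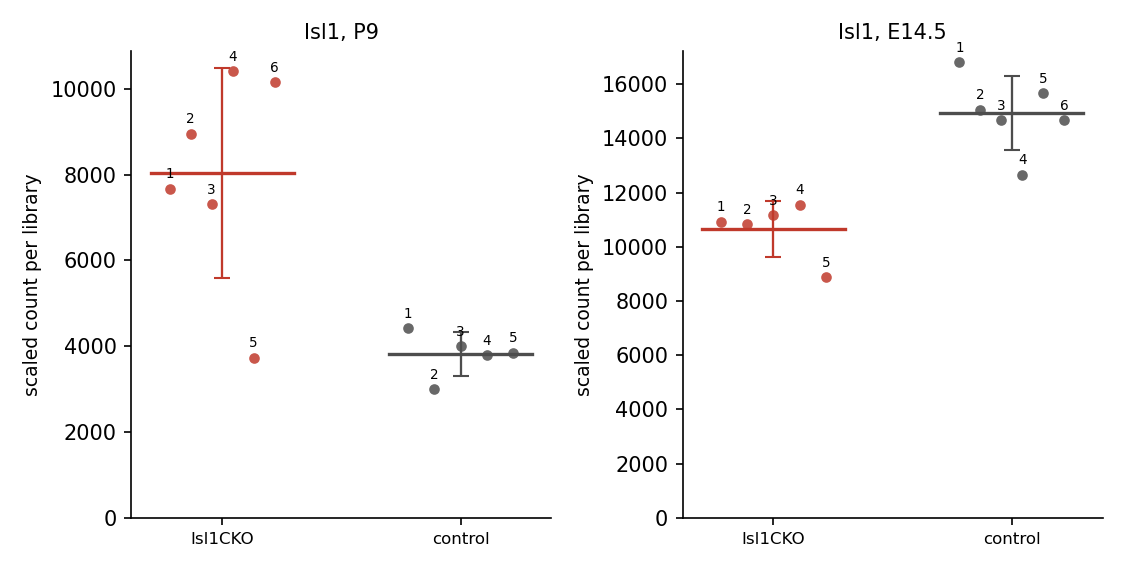
Scaled counts of Isl1 in each library at P9 (left) and E14.5 (right), with Isl1CKO in red and control in grey. Each numbered point is a library, the long bar is the group mean and the whiskers are 1 SD. At P9, 5 of 6 Isl1CKO libraries sit above all controls and library 5 sits within the control range; at E14.5 all 5 Isl1CKO libraries sit below all controls.

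The direction of the Isl1 difference thus changed with age. The log2 fold change was 1.08 at P9 and -0.48 at E14.5, and the interaction term in a joint fit of all 22 libraries was 1.57 (SE 0.24, adjusted p = 7.15e-04). It stayed between 1.48 and 1.71 whichever library was left out. Isl1 was the only member with an adjusted p under 0.05 in the interaction, where 2.08% of all 17265 genes tested were called (1.23% positive and 0.851% negative).

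In control cells, Isl1 was lower at P9 than at E14.5. To set levels of different genes and ages side by side, counts were scaled over all 22 libraries and given as CPM per kb of exon. On that scale the Isl1 level was 117.7 at the median of P9 control libraries (range 91.0 to 134) and 231.5 at the median of E14.5 control libraries (range 199 to 264), with no overlap. The log2 fold change of P9 over E14.5 controls was -1.02 (SE 0.17, adjusted p = 7.9e-05). The corresponding Isl1CKO medians were 252.7 at P9 and 169.9 at E14.5. Age, the way the cells were isolated (collagenase before trypsin at P9, trypsin alone at E14.5) and the sequencing of each age cannot be told apart.

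Isl1 was by far the most abundant member per kb. It stood above the other 7 in 22 of 22 libraries, and Ssbp3 came next in all 22. In P9 Isl1CKO libraries the medians were 252.7 CPM per kb for Isl1, 33.4 for Ssbp3, 8.46 for Ssbp2, 1.64 for Lmo1, 1.59 for Ldb1, 0.79 for Lmo2, 0.078 for Isl2 and 0.064 for Ldb2. In P9 control libraries they were 117.7 for Isl1, 28.1 for Ssbp3, 6.35 for Ssbp2, 2.92 for Ldb1, 2.16 for Lmo2, 0.49 for Lmo1, 0.14 for Ldb2 and 0.063 for Isl2. The lower places of this order were not stable: Lmo1 exceeded Ldb1 in only 3 of 6 P9 Isl1CKO libraries, and Lmo2 exceeded Lmo1 in only 3 of 5 P9 control libraries. At E14.5 the order of the first 6 was Isl1, Ssbp3, Ssbp2, Ldb1, Lmo1 and Lmo2 in both Isl1CKO and control cells, with Ssbp2 above Ldb1 in 5 of 5 Isl1CKO and 5 of 6 control libraries.

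**Figure D2:**
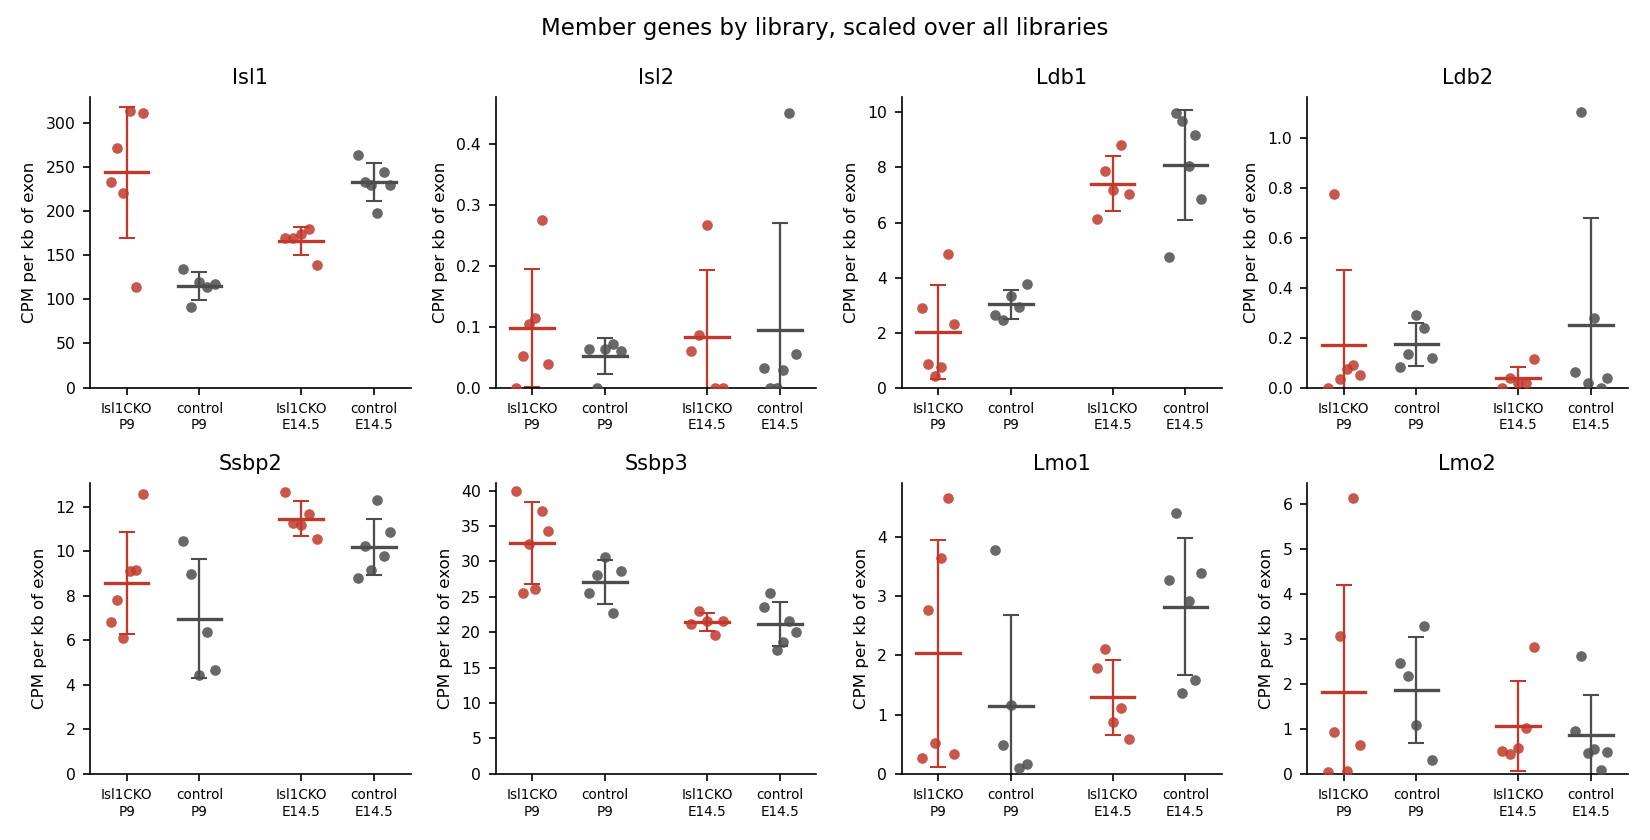
Level of each member in CPM per kb of exon, scaled over all libraries, on linear axes that start at 0 and differ between genes. Points are libraries in the groups Isl1CKO P9, control P9, Isl1CKO E14.5 and control E14.5, long bars are means and whiskers 1 SD (cut at 0). Isl1 is near 253 at the P9 Isl1CKO median, against 118 in P9 control, whereas Isl2 and Ldb2 stay at about 1 or below in every library.

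The 2 LIM-homeodomain genes called higher in P9 Isl1CKO cells were Isl1 and, from the wider network described below, Lhx1, so the 250 bases before the start of each are shown. The sequences are those of RefSeq for build GRCm38.p6, both from a minus strand gene and written 5′ to 3′ on that strand. They are chr13:116309689-116309938 for Isl1 and chr11:84525535-84525784 for Lhx1. Capitals mark TAAT or its reverse complement ATTA, the core that LIM-homeodomain proteins can bind.
Isl1: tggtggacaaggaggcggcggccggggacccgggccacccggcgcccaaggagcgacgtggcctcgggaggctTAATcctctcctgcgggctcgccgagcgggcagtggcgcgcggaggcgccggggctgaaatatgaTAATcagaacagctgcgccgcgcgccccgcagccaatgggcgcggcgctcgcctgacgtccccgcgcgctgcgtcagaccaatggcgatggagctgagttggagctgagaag
Lhx1: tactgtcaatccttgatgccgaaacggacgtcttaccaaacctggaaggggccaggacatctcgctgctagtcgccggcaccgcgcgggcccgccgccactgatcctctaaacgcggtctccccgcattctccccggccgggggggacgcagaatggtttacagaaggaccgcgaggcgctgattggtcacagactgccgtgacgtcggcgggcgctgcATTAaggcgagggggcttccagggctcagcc
The Isl1 window holds 2 matches and the Lhx1 window holds 1. At least 1 match was present in 54.9% of the 32851 windows of this length. Of the 6 members with a RefSeq window, 4 had a match in at least 1 window. Ldb1, Ssbp3 and Lmo1 had more than 1 window each, so this count per gene cannot be set against the share per window. Binding was not measured in the count tables.

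Apart from Isl1, no member passed the test at either age. Of the 8 members, 6 passed the filter on low counts at each age, since Isl2 and Ldb2 were too rare to test. At P9, 1 of these 6 was higher in Isl1CKO and 0 were lower, where 4.81% of 13964 genes were called (2.66% higher and 2.14% lower). At E14.5, 0 were higher and 1 was lower, where 1.43% of 15960 genes were called (0.602% higher and 0.827% lower). At an unadjusted p under 0.05 there were 1 at P9, where 17.4% of all genes had one, and 2 at E14.5, where 11.4% had one, and DESeq2 called 1 at each age. The median log2 fold change of the tested members was 0.28 at P9, against 0.023 over all genes, and -0.054 at E14.5, against -0.0045 over all genes. In these bulk samples, fewer cells of a type and less RNA per cell cannot be told apart.

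Isl2, the close relative of Isl1 known for its role in motor neurons, was nearly absent. Its scaled counts ran from 0 to 5.0 in P9 Isl1CKO and from 0 to 1.3 in P9 control libraries, with 12 and 4 raw counts in all. At E14.5 they ran from 0 to 9.5 in Isl1CKO and from 0 to 16.1 in control libraries, with 15 and 21 raw counts in all. The Isl1CKO and control libraries overlapped at both ages. Per kb, Isl1 made up at least 99.8% of the summed Isl1 and Isl2 level in every library.

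Ldb1, the adaptor through which LIM-homeodomain proteins act in pairs, varied widely among P9 Isl1CKO libraries. The scaled counts in Isl1CKO libraries 1 to 6 were 111, 32.8, 16.3, 28.5, 185 and 88.1. The control libraries had 101, 94.4, 129, 113 and 143. Thus 4 of 6 Isl1CKO libraries lay below every control library and library 5 lay above all of them. It had a log2 fold change of -0.59 with a SE of 0.56 (adjusted p = 0.67), and without library 5 it was -1.07 (adjusted p = 0.33). With total counts in place of TMM factors its sign turned, to 0.14. At E14.5 the scaled counts were 461, 585, 537, 656 and 522 in Isl1CKO libraries and ran from 351 to 750, with a median of 642, in control libraries, a log2 fold change of -0.13 (SE 0.18, adjusted p = 0.87). In controls, Ldb1 was lower at P9 than at E14.5, with medians of 2.92 and 8.62 CPM per kb and a log2 fold change of -1.42 (SE 0.41, adjusted p = 0.011). Pprc1, a neighbouring gene, shares 177 of the 4606 exon bases of Ldb1, and without strand information reads from these bases cannot be told apart.

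Ldb2, the second adaptor, was rare as well. Its scaled counts ran from 0 to 21.5 in P9 Isl1CKO libraries, with a median of 1.77, and were 2.33, 3.78, 8.14, 6.66 and 3.25 in P9 control libraries. At E14.5 they were 0, 2.02, 0.95, 1.03 and 6.13 in Isl1CKO libraries, and ran from 0 to 60.0 in control libraries with a median of 2.69. Single libraries set the high ends, namely P9 Isl1CKO library 2 and E14.5 control library 2. Per kb, Ldb1 made up a median of 95.2% of the summed Ldb1 and Ldb2 level in P9 Isl1CKO and 94.8% in P9 control libraries. These medians were 99.8% in E14.5 Isl1CKO and 99.1% in E14.5 control libraries. The lowest share was 52.4%, in the P9 Isl1CKO library 2.

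Neither stabilising gene was called between Isl1CKO and control. Ssbp3 had scaled counts of 1398 to 2186 with a median of 1824 in P9 Isl1CKO libraries and 1397, 1538, 1695, 1253 and 1554 in P9 control libraries. Although 4 of 6 Isl1CKO libraries exceeded every control, the log2 fold change of 0.26 (SE 0.15) missed the threshold (adjusted p = 0.41). With total counts it was 0.93 (adjusted p = 0.0018). At E14.5 the Ssbp3 values were 2273, 2445, 2311, 2081 and 2291 in Isl1CKO libraries and 1851 to 2746 with a median of 2216 in controls, a log2 fold change of 0.020 (SE 0.10, adjusted p = 0.97).

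Ssbp2 had scaled counts of 406 to 826 with a median of 562 in P9 Isl1CKO libraries, against 693, 598, 299, 426 and 307 in P9 control libraries. Its log2 fold change was 0.29 (SE 0.26, adjusted p = 0.64), and 0.98 with total counts (adjusted p = 0.021). At E14.5 the values were 1648, 1451, 1451, 1508 and 1355 in Isl1CKO libraries and 1129 to 1585 with a median of 1299 in controls. In log2 terms the difference was 0.17 (SE 0.099, adjusted p = 0.55). The groups overlapped at both ages. The gene 4833422C13Rik shares 22.1% of the exon bases of Ssbp2, so some of these reads may belong to it.

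Per kb, Ssbp3 made up a median of 78.4% of the summed Ssbp2 and Ssbp3 level in P9 Isl1CKO and 78.1% in P9 control libraries. These medians were 65.9% in E14.5 Isl1CKO and 67.2% in E14.5 control libraries, and single libraries of the ages overlapped (71.0 to 87.3% in P9 control and 60.2 to 72.8% in E14.5 control libraries). In controls, Ssbp2 was lower at P9 than at E14.5 (log2 fold change -0.55, SE 0.20, adjusted p = 0.042) and Ssbp3 was higher (log2 fold change 0.36, SE 0.13, adjusted p = 0.033). Both calls depended on single libraries. That of Ssbp2 was lost without any of P9 control libraries 3, 4 or 5 or E14.5 control libraries 2, 4, 5 or 6, and that of Ssbp3 without any of P9 control libraries 2, 3 or 5 or E14.5 control libraries 3, 4 or 6, with adjusted p-values up to 0.12 and 0.089. The Ssbp3 call was also lost with totals without hormone genes (0.25, adjusted p = 0.135) and with no filter on low counts (0.23, adjusted p = 0.199). With total counts the Ssbp3 value turned to -0.82 (adjusted p = 4.4e-05), under a shift of the median of all genes to -1.21. In all, 1 member was higher and 3 were lower at P9 than at E14.5, where 31% of all genes were called.

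Lmo1, a LIM-only gene, was low at both ages. At P9 its scaled counts were between 3.5 and 60.0 with a median of 21.2 in Isl1CKO libraries and were 48.9, 6.29, 15.1, 1.33 and 2.17 in controls, so the groups overlapped over nearly their whole range (log2 fold change 0.82, SE 0.98, adjusted p = 0.75). At E14.5 they were 45.1, 52.6, 21.9, 27.8 and 14.9 in Isl1CKO libraries and 34.2 to 112 with a median of 77.4 in controls. There 3 of 5 Isl1CKO libraries lay below every control. In log2 terms it was -1.13 (SE 0.44), with an unadjusted p of 0.022 and an adjusted p of 0.31, in a comparison where 11.4% of all genes had an unadjusted p under 0.05.

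Lmo2, the LIM-only gene best known from blood and endothelial cells, was driven by single libraries. At P9 the scaled counts were 0.87, 16.9, 55.5, 1.06, 110 and 11.4 in Isl1CKO libraries 1 to 6 and 44.2, 39.0, 19.8, 59.9 and 5.42 in controls (log2 fold change -0.04, SE 1.0, adjusted p = 0.99). At E14.5 they were 18.2, 15.2, 20.0, 36.0 and 98.0 in Isl1CKO libraries and ran from 2.84 to 92.1 with a median of 17.9 in controls (log2 fold change 0.33, SE 0.73, adjusted p = 0.93). The summed level of 7 endothelial markers was 3.76 CPM in P9 Isl1CKO library 5, which had most Lmo2 of its group, where it ran from 2.12 to 11.7 CPM. In the libraries with most Lmo2 of the E14.5 groups it was 26.6 CPM in Isl1CKO library 5 (group range 20.8 to 26.6 CPM) and 9.75 CPM in control library 2 (group range 9.75 to 25.5 CPM). Cdh5, a defining endothelial gene, was not among the genes listed at E14.5. Those genes have at least 10 counts in all, so the level of Cdh5 is unknown. The sign of the P9 value changed in 7 of the 11 fits that left out a library, so no direction is given for Lmo2.

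**Figure D3:**
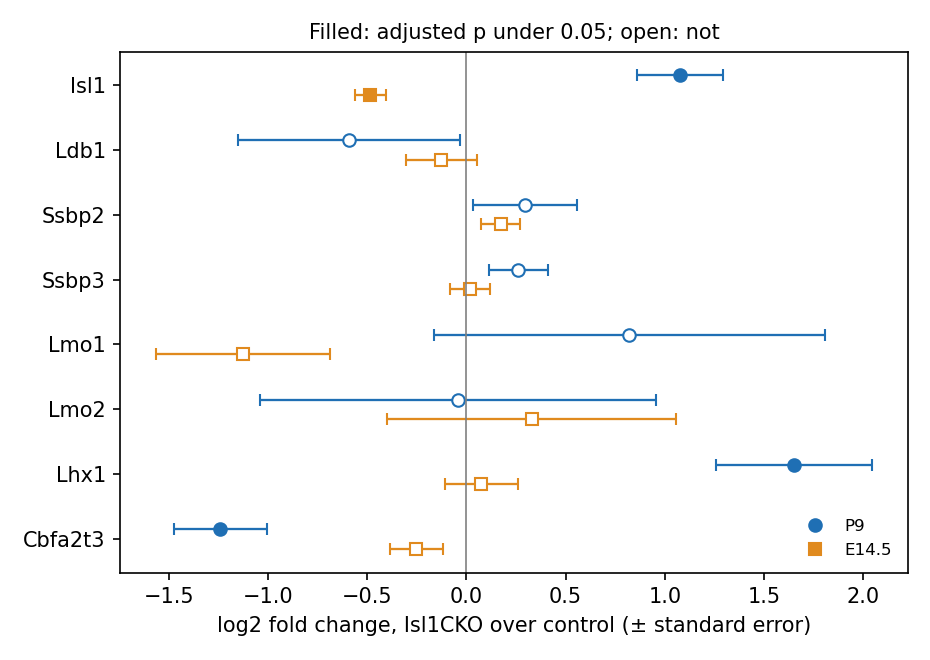
Log2 fold change of Isl1CKO over control for the 6 tested members and for Lhx1 and Cbfa2t3, with the standard error as whiskers. Blue circles are P9 and orange squares E14.5; filled symbols have an adjusted p under 0.05. Isl1 is at 1.08 at P9 and -0.48 at E14.5, and no other member is filled.

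Because Isl1 and Ldb1 were read in the same library, their ratio needs no scaling. At P9 there were 69.2, 273, 449, 365, 20.2 and 115 Isl1 counts per Ldb1 count in Isl1CKO libraries 1 to 6, against 43.6, 31.8, 31.0, 33.5 and 26.9 in control libraries. Isl1CKO library 5 was the lowest of all 11 and the other 5 Isl1CKO libraries were the highest. The ratios of 273, 449 and 365 in Isl1CKO libraries 2, 3 and 4 rest on only 35, 17 and 27 Ldb1 counts. The mean log2 ratio was 7.12 ± 1.71 in Isl1CKO (SD, n = 6) and 5.04 ± 0.26 in control (SD, n = 5), a difference of 2.08 (exact two-sided permutation test over 462 splits, p = 0.035, where 0.0022 is the smallest p possible). The SDs of the groups were unequal, so this p can reflect a difference in spread as well as in means. Without Isl1CKO library 5 the difference was 2.63 (exact p = 0.0079). Leaving out Isl1CKO library 2, 3, 4 or 6 or any 1 of control libraries 1 to 5 gave differences of 1.74 to 2.18 with exact p-values of 0.052 to 0.062. Library 5 also had the most Ldb1, Lmo1 and Lmo2 of the P9 Isl1CKO libraries, while its hormone transcripts (14.9% of counts), its Sst (0 counts) and its Mafa (6 counts) were within the range of the other Isl1CKO libraries or below it. The part of this library's composition in its Isl1 level was not tested.

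At E14.5 the ratio was 23.7, 18.5, 20.8, 17.6 and 17.0 in Isl1CKO libraries and 20.1 to 47.9 in control libraries. The mean log2 ratio was 4.28 ± 0.19 in Isl1CKO (SD, n = 5) and 4.67 ± 0.48 in control (SD, n = 6), a difference of -0.39 that did not pass the exact permutation test (p = 0.097). When the other 7 members were summed as the denominator, the difference was -0.52 (exact p = 0.0022) at E14.5 and 0.79 (exact p = 0.052) at P9. That denominator sums raw counts, and most of them came from Ssbp3 and Ssbp2. These had 13263 and 7797 counts in E14.5 controls, against 3591 for Ldb1, and 6254 and 1930 in P9 controls, against 490. A ratio shows unequal change, not which gene changed.

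**Figure D4:**
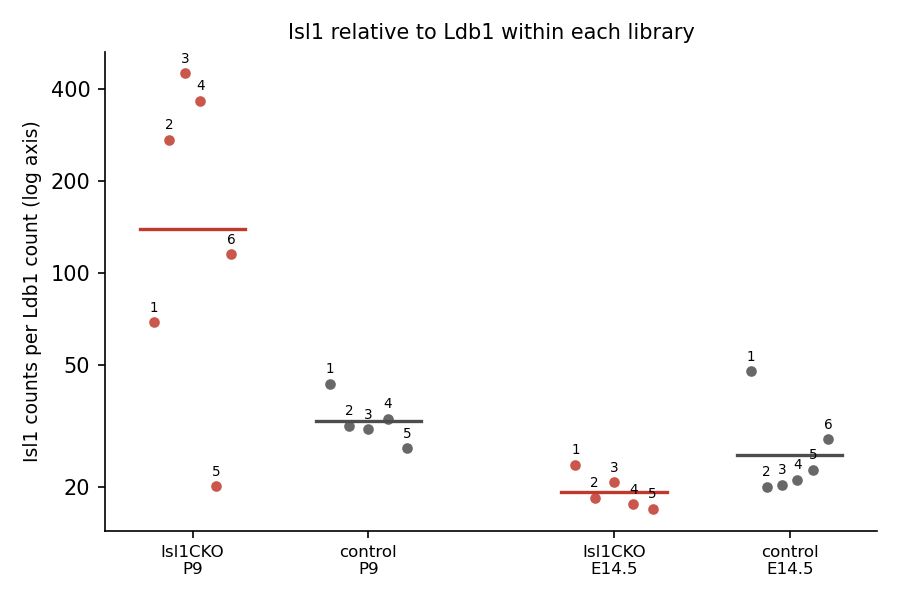
Isl1 counts per Ldb1 count in each library on a log axis, for P9 (left) and E14.5 (right) with Isl1CKO in red and control in grey. Numbers are library numbers and bars are geometric means. The P9 Isl1CKO libraries spread from 20.2 to 449, against 26.9 to 43.6 in P9 controls.

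The wider network listed 31 other genes, 30 of them in the tables used: LIM-homeodomain, LIM-only and SSBP relatives, and transcription factor, corepressor and chromatin partners known to bind LDB1, ISL1 or their complexes. Of these, 16 were tested at P9, where 1 was higher and 1 was lower in Isl1CKO, against 4.81% of all genes called (2.66% higher and 2.14% lower). At E14.5, 20 were tested and 0 passed the test in either direction by edgeR, against 1.43% of all genes. There 4 of the 20 had an unadjusted p under 0.05, against 11.4% of all genes, and DESeq2 called 0 as well. The median log2 fold change of the tested network genes was 0.21 at P9, against 0.023 over all genes, and -0.048 at E14.5, against -0.0045 over all genes.

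Lhx1, a LIM-homeodomain gene that acts in kidney and neuronal development, was the gene of the network that rose at P9. Its scaled counts were between 187.5 and 510.8 with a median of 266 in Isl1CKO libraries, against 94.3, 54.1, 189, 70.6 and 56.4 in control libraries. Of 6 Isl1CKO libraries, 5 lay above every control, and library 5 at 187.5 lay just below control library 3. This gave a log2 fold change of 1.65 (SE 0.39, adjusted p = 0.024), or 3.14-fold higher. The call was lost without control library 1, 2, 4 or 5 or without Isl1CKO library 4, with values of 1.42 to 1.65 and adjusted p-values of 0.052 to 0.066. At E14.5 the values were 566, 1013, 1064, 1078 and 837 in Isl1CKO libraries and 692 to 1161 with a median of 755 in controls (log2 fold change 0.075, SE 0.18, adjusted p = 0.93). The interaction was 1.58 (SE 0.42, adjusted p = 0.045), but in 17 of the 22 fits that left out a library it missed the threshold, with adjusted p-values up to 0.092. It was also lost with totals without hormone genes, at 1.47 (adjusted p = 0.063). In controls, Lhx1 was 4.80-fold lower at P9 than at E14.5 (adjusted p = 6.5e-06), so that the P9 Isl1CKO median of 7.87 CPM per kb lay between the P9 control median of 2.06 and the E14.5 control median of 11.5.

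Cbfa2t3, which encodes the corepressor ETO2 that joins LDB1 complexes in blood cells, fell at P9. Its scaled counts were 238, 373, 291, 338, 252 and 159 in Isl1CKO libraries and 673, 621, 602, 486 and 866 in control libraries, with no overlap, which holds for 5.38% of all genes tested at P9. In log2 terms the change was -1.24 (SE 0.23, adjusted p = 0.0058), 2.36-fold lower in Isl1CKO. The call held whichever library was left out, but with total counts the value was -0.60 and the adjusted p 0.062. At E14.5 it was 795 ± 140 in Isl1CKO (SD, n = 5) and 946 ± 125 in control (SD, n = 6), a log2 fold change of -0.25 (SE 0.13, adjusted p = 0.51). The interaction of -0.99 just missed the threshold (adjusted p = 0.052), and DESeq2 gave it an adjusted p of 0.012. Genes annotated over it (Gm10612, Gm15899 and Gm20388) share 295 of its 8373 exon bases, and reads from these bases cannot be told apart.

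**Figure D5:**
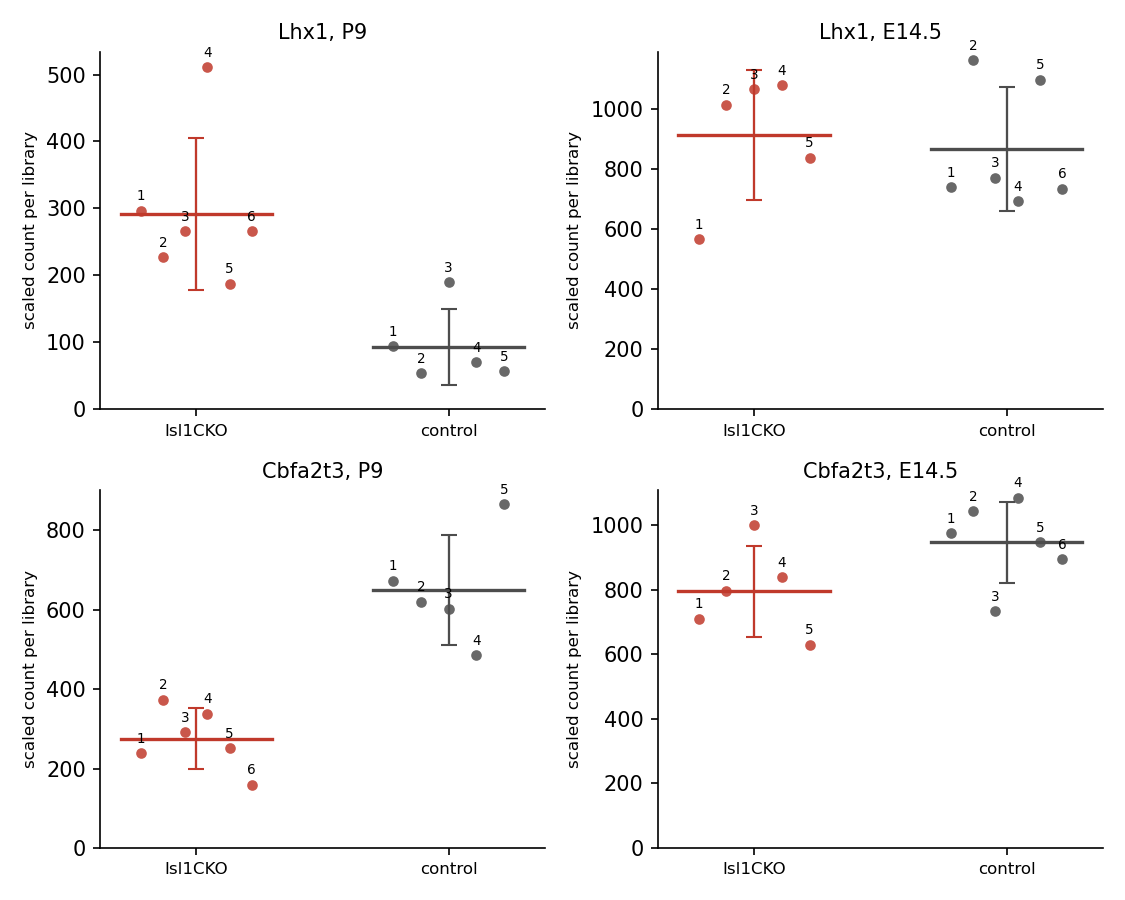
Scaled counts of Lhx1 (top) and Cbfa2t3 (bottom) in each library at P9 (left) and E14.5 (right), with Isl1CKO in red and control in grey. Numbered points are libraries, long bars are means and whiskers 1 SD. At P9 Lhx1 averages 292 in Isl1CKO and 93.0 in control, and Cbfa2t3 averages 275 in Isl1CKO and 649 in control.

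The other LIM and SSBP genes gave no call between Isl1CKO and control. Lmo4, a broadly expressed LIM-only gene, had log2 fold changes of 0.45 at P9 (SE 0.93) and -1.44 at E14.5 (SE 0.63, unadjusted p = 0.039, adjusted p = 0.40). Lmo3 had -1.15 at E14.5 (SE 0.51, adjusted p = 0.41) and was too rare to test at P9. Lhx6 had 0.39 (SE 0.82) and Lmx1a -0.56 (SE 1.14) at E14.5, and neither could be tested at P9; Lhx2, Lhx3, Lhx4, Lhx8 and Lhx9 were too rare at both ages. Ssbp4 had -0.58 at P9 (SE 0.49) and 0.37 at E14.5 (SE 0.18, adjusted p = 0.46). Lmx1b had 0.10 at P9 (SE 0.53) and 0.19 at E14.5 (SE 0.27). Neurod1, an endocrine transcription factor given here because its regulatory region drives Cre, had -0.067 at P9 (SE 0.15) and 0.13 at E14.5 (SE 0.080). Between the ages in controls, 1 of 19 tested network genes was higher at P9 than at E14.5, where 15.8% of all genes were higher, and 8 were lower, where 15.2% of all genes were lower. Among the lower ones were Lhx1, Lmo3 (log2 fold change -2.49, adjusted p = 0.015), Ssbp4 (-1.19, adjusted p = 0.018) and Neurod1 (-0.69, adjusted p = 1.7e-04).

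Genes known to depend on ISL1 in the islet were lower in Isl1CKO. Of 11 such genes listed, 0 were higher and 9 were lower at P9, where 2.14% of all genes were lower, with a median log2 fold change of -2.27. At E14.5, 0 were higher and 3 were lower, where 0.827% of all genes were lower, with a median of -0.96. Mafa, a transcription factor of mature beta cells, fell at P9 with 5.00 to 115.1 scaled counts in Isl1CKO and 1321 to 3401 in control libraries (log2 fold change -5.60, adjusted p = 2.0e-04). Pdx1, another beta cell factor, fell at P9 by 1.46 on the log2 scale (SE 0.19, adjusted p = 3.4e-04), and Ins1 fell by 1.72 (SE 0.22, adjusted p = 3.6e-04). Sst had 3 raw counts in all over the 6 P9 Isl1CKO libraries and 191 to 1018 in each control library. At E14.5 the lower genes were Mnx1 (log2 fold change -1.43, adjusted p = 0.014), Gcg (-3.77, adjusted p = 0.015) and Pdx1 (-0.71, adjusted p = 0.026). The call of Pdx1 was lost without E14.5 control library 1 or 2 or Isl1CKO library 2, 4 or 5 (adjusted p 0.050 to 0.074), and that of Gcg without Isl1CKO library 5 (adjusted p = 0.051). This list was drawn up with results on these samples known, so its direction is not independent evidence.

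The genes whose levels followed Isl1 most closely differed between the ages. At P9 they were Ccdc160, Ccn3, Fam84a, Dnajc12 and Pdcd5, with Pearson r of log2 CPM with Isl1 between 0.92 and 0.96 over 11 libraries, and between 0.78 and 0.89 once group means were removed. At E14.5 they were Ccdc148, Arg1, Rbp4, Znrf3 and Pnisr, with r between 0.93 and 0.96, and between 0.69 and 0.81 without group means. The same-library r of Ldb1 with Isl1 was -0.66 at P9 and 0.049 at E14.5, and that of Ssbp3 was 0.17 at P9 and 0.067 at E14.5. For Ssbp2 it was 0.33 at P9 and -0.62 at E14.5, and for Lmo1 it was 0.69 at E14.5. With group means removed, the E14.5 values were -0.18 for Ldb1, 0.33 for Ssbp3, -0.34 for Ssbp2 and 0.27 for Lmo1. The P9 values were then -0.50 for Ldb1, -0.47 for Ssbp3 and 0.062 for Ssbp2, so the sign for Ssbp3 turned. These correlations describe 11 libraries in 2 groups and share the scaling. The 5 genes named at each age had the highest r of 10377 genes ranked at P9 and 11761 at E14.5. Their high r follows from that choice, and removing group means does not make it an independent check.

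Around Isl1, which lies in a wide interval, the nearest tested genes were far away. Parp8, at 545 kb, had a log2 fold change of -0.97 at P9 (SE 0.26, adjusted p = 0.048) and -0.39 at E14.5 (adjusted p = 0.62). Its P9 call was lost in 9 of the 11 fits that left out a library, with adjusted p-values up to 0.13. Emb and Gm6421 on the same side and Itga1, Gm10734 and Pelo on the other, at 899 to 1210 kb, were not called at either age.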

How the data were processed

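RNA from 22 libraries of sorted cells was counted per Ensembl gene by the authors (cutadapt 1.18, Bowtie 1.2.2, STAR 2.7.0c and GRCm38.p6 per the labels), and the deposited values are raw counts of genes with at least 10 counts per table. Multimapping reads were not counted, per the methods of the study. Each age was fitted with edgeR 4.0.16 in R 4.3.3 (TMM, filterByExpr, quasi-likelihood test, Benjamini-Hochberg over all tested genes, threshold 0.05), and all 22 libraries were fitted together for the interaction and for P9 over E14.5 in controls. Isl1 to Ldb1 ratios were compared by an exact two-sided permutation test. Fits were tested on simulated counts. Alternatives were DESeq2 1.42.0, its size factors, total counts, totals without hormone genes, no filter, a replicate block and leaving out libraries. Named genes were the members, called network genes and LIM and SSBP relatives, up to 4 targets of smallest p per age, the 5 genes most correlated with Isl1 (mean scaled count of 50 or more) and its 3 nearest tested genes on each side. Members and lists were chosen with earlier results of these data known. Promoters came from RefSeq, which held 6 of the 8 members. The depth of 8477482 to 13580985 counts does not limit Isl1, but Isl2, Ldb2, Lmo1 and Lmo2 rest on few counts. So does Ldb1 in P9 Isl1CKO libraries 2, 3 and 4, with 35, 17 and 27 raw counts.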

Additional observations from a re-analysis of the deposited data

Results flagged for a closer look

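In 8 of 36 groups checked, 1 library lay further from the others than Dixon's 95% limit. That limit assumes normally distributed values, whereas scaled counts were used unlogged and many lay near 0. The share flagged can therefore not be set against a rate of 1 in 20. For Isl1, E14.5 Isl1CKO library 5 was low at 8884 scaled counts, with the next at 10840. For Isl2, E14.5 control library 5 was high at 16.07 (next 1.973) and P9 control library 2 was low at 0 (next 1.085, from 1 raw count). For Ldb2, P9 Isl1CKO library 2 was high at 21.54 (next 2.5) and E14.5 control library 2 was high at 59.99 (next 15.04). For Lmo1, P9 control library 1 was high at 48.88 (next 15.11). For Lmo2, E14.5 Isl1CKO library 5 was high at 98.05 (next 35.98) and E14.5 control library 2 was high at 92.06 (next 32.84).

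The Isl1CKO effect differed between P9 and E14.5 for 2 genes by the interaction test in edgeR, with a difference in log2 fold change of 1.567 for Isl1 (adjusted p = 7.15e-04) and 1.58 for Lhx1 (adjusted p = 0.045).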

How the results depend on the processing

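The Isl1 calls at both ages and in the interaction kept their direction under every alternative run, and were lost only at P9 with the replicate block and at E14.5 with the block or without Isl1CKO libraries 3, 4 and 5, chosen after seeing the data. Deviations of same-numbered libraries had correlations of -0.0516 to 0.0559. Such values cannot decide whether shared numbers mark shared litters or batches, which the sources do not state. With the replicate block, 0 members were called at P9 (Isl1 0.94, adjusted p = 0.066) and 0 at E14.5 (Isl1 -0.49, adjusted p = 0.052). The block left 0 network genes called at P9 (Lhx1 1.76, adjusted p = 0.058, and Cbfa2t3 -1.12, adjusted p = 0.056). The Lhx1 interaction was then 1.73 (adjusted p = 0.072). The P9 ratio difference was 2.13 (exact p = 0.125 by sign flips of same-numbered pairs). Those pairs were too few for any p under 0.05, so that test could not have passed. Lmo4 and Lmx1b at P9 turned to -0.56 and -0.19. Calls over all genes numbered 333 at P9, 134 at E14.5 and 130 in the interaction, against 671, 228 and 359 without the block. With total counts, 3 members and 9 network genes were called at P9 and 2 members in the interaction; Ldb1 turned to 0.14 at P9 and 0.24 in the interaction, Lmo2 to 0.69 at P9, 0.33 in the interaction and -0.060 between ages, Ssbp4 to 0.056 at P9 and Ssbp3 to -0.82 between ages. Calls over all genes then numbered 3975 at P9 (3824 higher, 151 lower, against 372 and 299), 3199 in the interaction (3109 higher, 90 lower, against 212 and 147) and 10636 between ages (604 higher, 10032 lower, against 2721 and 2626). With totals without hormone genes, the split was 292 higher and 460 lower at P9, 165 and 239 in the interaction and 2335 and 3123 between ages. DESeq2 called 1677 genes at P9, 653 at E14.5 and 924 in the interaction. Without E14.5 Isl1CKO libraries 3, 4 and 5, 0 members and 42 genes in all were called, and Lmo2 and Lhx1 turned to -0.83 and -0.13. Without P9 control libraries 1 and 3, also chosen after seeing the data, 374 genes were called and Lmx1b turned to -0.13, as it did to -0.0083 without hormone genes. With the other 7 members as denominator, mostly Ssbp3 and Ssbp2 counts, the ratio difference was 0.79 at P9 and -0.52 at E14.5. Leaving out each library gave 1 to 3 network calls at P9, 2 to 5 member calls between ages and P9 ratio differences of 1.74 to 2.63; signs turned within -0.97 to 0.26 for Lmo2 and -0.19 to 0.39 for Lmx1b at P9, -0.031 to 0.084 for Ssbp3 and -0.41 to 1.099 for Lmo2 at E14.5, and -0.011 to 0.32 for Ssbp2 and -1.30 to 0.38 for Lmo2 in the interaction. The causes of these changes were not tested.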
